A study of Mus musculus with 6 samples.

Results

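Amino acid transporter genes of activated lymphocytes were compared between KLRG1-negative and KLRG1-positive innate lymphoid cells (ILCs) of the mouse lung. The 9 genes were taken by name (Slc3a2, Slc7a5, Slc7a8, Slc7a6, Slc7a11, Slc1a5, Slc1a4, Slc38a1 and Slc38a2), and each matched 1 row among 52636 genes in the count table. Both populations, with 3 libraries each, came from wild-type C57BL/6 mice that carry the 4get green fluorescent protein reporter at Il4. All mice received 500 ng of interleukin-33 intraperitoneally for 4 days and were killed on day 5, so none of these ILCs is untreated. Cells lacking lineage markers and bearing CD90 were sorted as KLRG1-negative ILCs or as KLRG1-positive ILC2 (group 2 ILCs, which make type 2 cytokines), a sort that the labels' protocol also calls KLRG1-high. The labels do not say whether libraries came from separate mice, and if they did not, the p-values reflect technical spread alone; they measure the variation among these libraries and no more.

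Lymphocytes that grow and divide import amino acids for protein synthesis, and leucine and other amino acids feed the kinase mTORC1 at the lysosome. CD98 is a heterodimer. Its heavy chain, encoded by Slc3a2, carries 1 of several light chains to the plasma membrane, and the light chain does the transport. Slc7a5 encodes LAT1 and Slc7a8 encodes LAT2, exchangers of large neutral amino acids (system L). Slc7a6 encodes y+LAT2, which exchanges cationic for neutral amino acids, and Slc7a11 encodes xCT, which takes up cystine in exchange for glutamate. Slc1a5 and Slc1a4 encode the sodium-dependent exchangers ASCT2 and ASCT1 of small neutral amino acids, with glutamine a substrate of ASCT2. Slc38a1 and Slc38a2 encode SNAT1 and SNAT2, which take up glutamine and other neutral amino acids with sodium. In amino acid shortage the transcription factor ATF4 raises many of these genes through amino acid response elements.

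Promoter sequence from RefSeq (build GRCm38.p6, 250 bases before to 50 after each start) was on hand for 6 of the 9 genes. Slc7a5, Slc1a5 and Slc38a1 had no entry. The windows were searched on both strands for the amino acid response element TGATGNAA, the E-box CACGTG bound by MYC, and the antioxidant response element TGACNNNGC bound by NRF2. Of all 32851 promoter windows, 3.97% held the first, 7.15% the second and 12.4% the third, and the 3 patterns can overlap each other. Shown are the windows of Slc7a11 and Slc1a4, the genes with an amino acid response element, and that of Slc7a8, the gene whose level separated the populations at more than trace counts. All are 5′ to 3′ on the gene's strand, with motif matches in capitals.
Slc7a11 (chr3:50443624-50443713, minus strand, bases -100 to -11 from the start): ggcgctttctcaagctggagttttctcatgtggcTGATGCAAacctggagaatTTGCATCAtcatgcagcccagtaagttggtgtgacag
Slc1a4 (chr11:20332704-20332783, minus strand, bases -70 to +10): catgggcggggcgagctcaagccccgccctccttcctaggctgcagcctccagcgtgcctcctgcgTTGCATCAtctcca
Slc7a8 (chr14:54781887-54782136, minus strand, bases -250 to -1): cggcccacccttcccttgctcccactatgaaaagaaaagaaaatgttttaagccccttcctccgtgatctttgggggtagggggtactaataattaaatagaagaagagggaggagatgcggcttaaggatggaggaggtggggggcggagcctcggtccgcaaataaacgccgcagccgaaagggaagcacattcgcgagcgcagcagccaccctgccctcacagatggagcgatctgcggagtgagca
Slc7a11 held the amino acid response element on both strands, at bases -66 to -59 and -47 to -40, and Slc1a4 held it across its start. Slc7a6 and Slc38a2 held the antioxidant pattern. Slc7a8 and Slc3a2 held none of the 3 patterns in these windows, and no E-box was found in any of the 6 genes. These matches describe letters only, since binding was not measured.

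Of the 9 genes, 0 passed an edgeR quasi-likelihood test adjusted over all 15197 genes tested, in which 1.34% of genes passed (threshold 0.05), nor with the library number as a block, where 0.349% passed. Assigned counts per library were 17323004 to 23946073. With DESeq2, another count test that called 11.2% of genes (2.0% higher and 9.15% lower), 1 gene passed, Slc7a8, which was higher in KLRG1-positive cells. It also passed DESeq2 with the block, which called 15.4% of genes (3.78% higher and 11.6% lower). All 9 entered the test, but Slc7a11 did so only through its counts in KLRG1-positive cells, so it is described on its own and left out of the next counts. Of the other 8 genes, at an unadjusted p under 0.05 edgeR placed 1 higher, Slc7a8, and 0 lower, against 4.19% and 11.5% of all genes tested. Slc7a8 was also the 1 gene of these 8 whose libraries did not overlap between the populations (9.46% of genes tested were higher in that way and 15.2% lower). Levels are given as CPM, a count scaled to the library's total after adjustment by a TMM scaling factor (0.960 to 1.06 per library). Log2 fold changes are positive where KLRG1-positive cells were higher.

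The 2 sorts also differed in transcripts of other cells, whose part in the differences below was not tested. Klrg1 stood at 13.1 to 192 CPM in KLRG1-negative and 1324 to 1782 CPM in KLRG1-positive libraries. Even so, Klrg1 itself did not pass edgeR (log2 fold change 4.04, adjusted p = 0.0939). With the library number as a block its edgeR adjusted p was 0.119. DESeq2 without the block gave Klrg1 an adjusted p of 3.5e-05. A gene that did not pass edgeR is thus not shown to be level between the sorts. Summed over 9 T cell markers, the KLRG1-negative libraries held 1136 to 4357 CPM and the KLRG1-positive ones 313 to 372 CPM. The sums of 8 B cell markers were 5382 to 22446 against 2080 to 7198 CPM, and those of 7 fibroblast markers 3852 to 10773 against 17.6 to 47.5 CPM. Markers of ILC2 (11 genes, among them Gata3, Il1rl1 and Arg1) summed to 1631, 3968 and 2994 CPM in KLRG1-negative libraries 1, 2 and 3, and to 6937, 7938 and 6728 CPM in libraries of the KLRG1-positive sort. None of these markers was at 0 in all 3 libraries of either sort; Cd4 was at 0 in 4 of the 6 libraries and at most 1.17 CPM in the others. In such bulk samples, fewer cells of a type and less RNA per cell cannot be told apart.

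**Figure D1:**
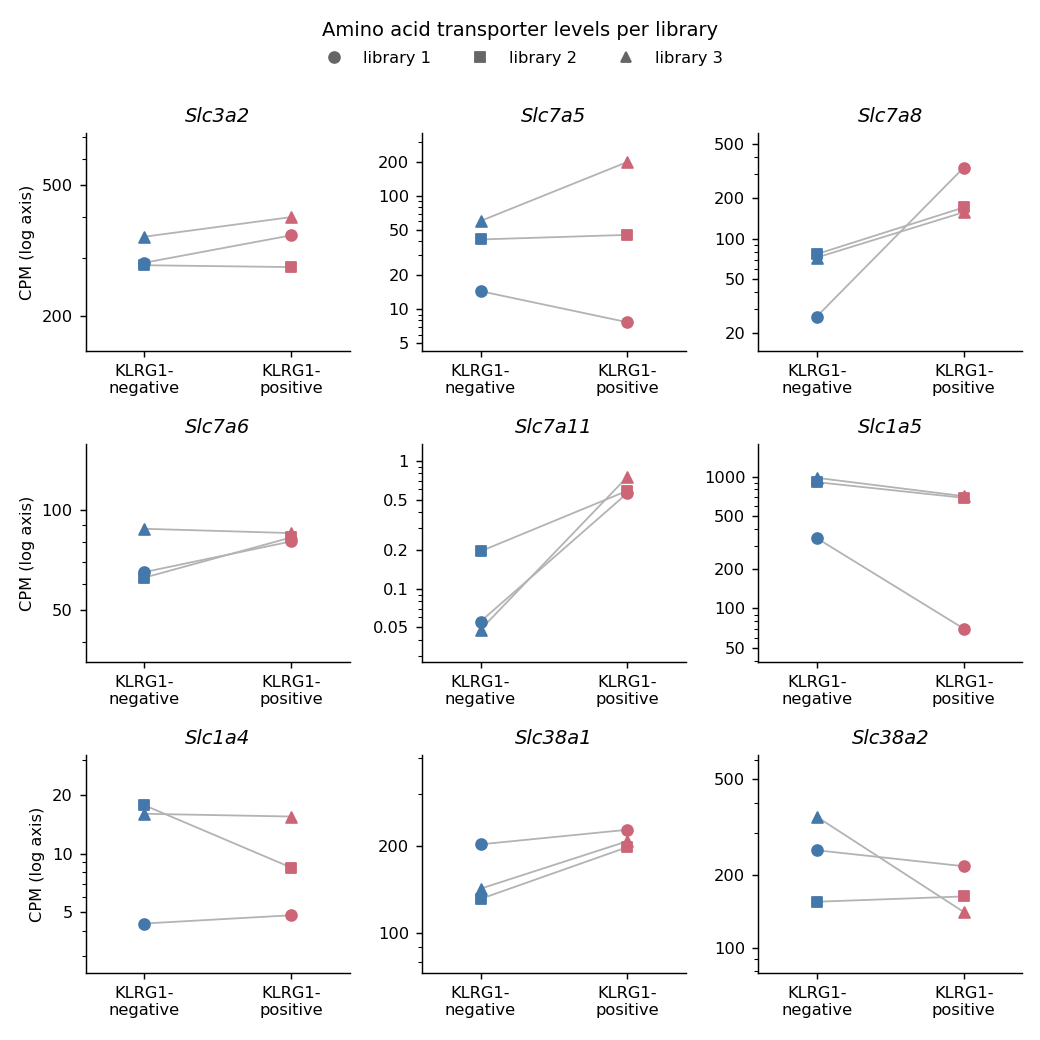
CPM of each of the 9 genes on a log axis, in KLRG1-negative (blue) and KLRG1-positive (red) libraries, with grey lines joining libraries of the same number. Slc7a8 and Slc7a11 are higher in all 3 KLRG1-positive libraries than in any KLRG1-negative one, while Slc7a5 runs from 7.70 to 201 CPM within the KLRG1-positive libraries.

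Slc7a8, the LAT2 light chain (ENSMUSG00000022180, GRCm38 chromosome 14, 54722216 to 54781886, minus strand), was the 1 gene of the 9 that passed DESeq2. It stood at 26.6, 76.7 and 72.4 CPM in KLRG1-negative libraries 1, 2 and 3 and at 333, 169 and 156 CPM in libraries of the KLRG1-positive sort. No library of one sort reached the range of the other, with library 1 the lowest of its group in the first sort and the highest in the second. The means were 58.6 ± 27.8 and 220 ± 98.5 CPM (SD, n = 3), a ratio of 3.75. The log2 fold change was 1.91 ± 0.50 (SE; 95% interval 0.68 to 3.13), with an edgeR adjusted p of 0.129 and a DESeq2 adjusted p of 0.00760. With the library number as a block, edgeR gave an adjusted p of 0.229 and DESeq2 0.00321. By number, the KLRG1-positive library exceeded its KLRG1-negative partner by 3.65, 1.14 and 1.11 on the log2 scale.

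The size of the Slc7a8 difference rested on what it was set against. Per 1000 CPM of the summed ILC2 markers, Slc7a8 stood at 16.3, 19.3 and 24.2 in KLRG1-negative and at 48.0, 21.3 and 23.2 in KLRG1-positive libraries. On that scale only KLRG1-positive library 1 lay outside the KLRG1-negative range. The summed ILC2, T cell and fibroblast markers each separated the sorts as well, and their part in the Slc7a8 difference was not tested. Without both libraries numbered 1, the log2 fold change was 1.14 (edgeR adjusted p = 0.132).

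Slc7a5, the LAT1 light chain (ENSMUSG00000040010, chromosome 8, 121881150 to 121907694, minus strand), varied more among libraries of the same sort than between the sorts. It stood at 14.5, 41.5 and 60.4 CPM in KLRG1-negative libraries 1, 2 and 3 and at 7.70, 45.5 and 201 CPM in libraries of the KLRG1-positive sort. The order of the libraries was the same in both sorts, with number 1 lowest and number 3 highest. Within the KLRG1-positive libraries the highest exceeded the lowest 26.1-fold, a wider spread than in 96.9% of the 9526 genes that averaged at least 10 CPM, whose median was 1.52-fold. The log2 fold change of 1.13 ± 1.10 (SE) did not pass (edgeR adjusted p = 0.735), and its 95% interval of -1.55 to 3.80 covers a lower as well as a several-fold higher level. With the library number as a block it was 0.32 (edgeR adjusted p = 0.82), and without KLRG1-positive library 3 it was -0.41. The same-numbered differences were -0.91, 0.13 and 1.73 on the log2 scale, so the sorts differed in no single direction.

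Slc3a2, the heavy chain (ENSMUSG00000010095, chromosome 19, 8706882 to 8723369, minus strand), was among the steadier of the 9 genes. It stood at 290, 285 and 348 CPM in KLRG1-negative and at 351, 281 and 399 CPM in KLRG1-positive libraries. The sorts overlapped, and the log2 fold change of 0.16 (95% interval -0.31 to 0.63) did not pass (edgeR adjusted p = 0.797). Slc7a6, the y+LAT2 light chain (chromosome 8, 106168857 to 106198706, plus strand), stood at 65.1, 62.6 and 87.9 CPM in KLRG1-negative and at 80.5, 82.8 and 85.3 CPM in KLRG1-positive libraries. Its KLRG1-positive libraries differed 1.06-fold at most, a narrower spread than in all but 2.20% of genes that averaged at least 10 CPM. The log2 fold change was 0.21 (95% interval -0.29 to 0.70, edgeR adjusted p = 0.742). Scaled to 11 genes expressed across blood cells instead of the TMM-adjusted total, both log2 fold changes turned slightly negative (-0.08 for Slc3a2 and -0.03 for Slc7a6).

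Slc7a11, the xCT light chain (ENSMUSG00000027737, chromosome 3, 49892526 to 50443614, minus strand), was present at trace level. It had 1, 5 and 1 counts in KLRG1-negative and 10, 11 and 17 counts in KLRG1-positive libraries, or 0.0480 to 0.197 against 0.562 to 0.753 CPM. The 38 counts against 7 gave a ratio of 5.90 with an exact binomial 95% interval of 2.60 to 15.7, which covers counting error only. The log2 fold change of 2.56 ± 0.85 (SE) had an edgeR adjusted p of 0.211 and a DESeq2 adjusted p of 0.157. Slc7a11 entered the test only through its counts in KLRG1-positive cells. Its ratio, intervals and p-values are therefore descriptive and lend no support to a difference. No count of another gene's overlapping exons enters these values, since in the deposited gene models none of the 9 genes shares exon bases with another gene.

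Levels per kilobase of gene model let genes be compared. On that scale the 4 CD98 light chains among these genes, summed, came closer to the heavy chain in KLRG1-positive cells. The ratio of the 4 summed light chains to Slc3a2 was 0.301, 0.544 and 0.543 in KLRG1-negative libraries 1, 2 and 3 and 1.03, 0.909 and 0.987 in libraries of the KLRG1-positive sort. The sorts did not overlap, at 0.463 ± 0.140 and 0.975 ± 0.0606 (SD, n = 3; two-sided exact permutation p = 0.1, the smallest that 3 against 3 libraries allow). Without Slc7a8 in the sum the ratio overlapped, at 0.221, 0.308 and 0.360 against 0.198, 0.382 and 0.644. Slc7a7, another CD98 light chain, listed with the other amino acid transporters below, was not in the sum. Per kilobase Slc7a7 was lower in KLRG1-positive libraries without overlap, as were 15.2% of genes tested, at 2.38, 2.26 and 10.3 against 1.02, 0.0162 and 1.88 CPM. The value of 0.0162 stands for 1 count. Slc7a7 did not pass edgeR (adjusted p = 0.50) or DESeq2 (adjusted p = 0.274), and passed DESeq2 with the block (adjusted p = 0.0120). It is not among the genes named by rule. These ratios compare RNA levels and say nothing of assembled protein, and gene model length counts all annotated exons.

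The make-up of these light chains, without Slc7a7, differed from library to library. Slc7a5 took 15.8, 25.5 and 30.5% of the light chain total in KLRG1-negative libraries 1, 2 and 3 and 2.03, 16.9 and 48.5% in libraries of the KLRG1-positive sort (two-sided exact permutation p = 1). Slc7a8 took 26.6, 43.3 and 33.6% against 80.7, 58.0 and 34.7%. In KLRG1-positive library 1 Slc7a8 thus stood far above Slc7a5, while in KLRG1-positive library 3 Slc7a5 was the larger of them. Slc7a6 took 57.5, 31.2 and 36.0% in KLRG1-negative libraries and 17.2, 25.0 and 16.7% in KLRG1-positive ones, and Slc7a11 at most 0.0581% in any library.

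**Figure D2:**
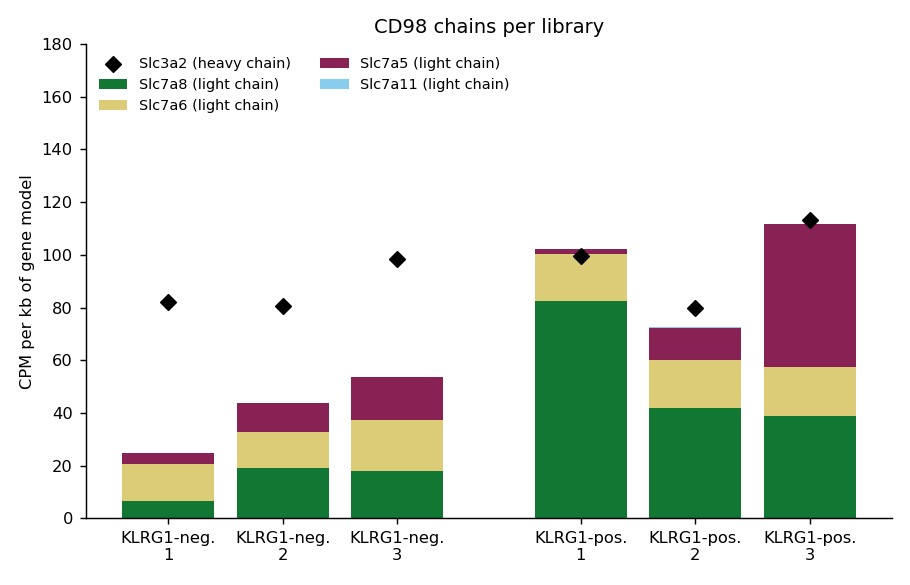
Stacked bars give the CPM per kilobase of gene model of the CD98 light chains in each library, and black diamonds that of the heavy chain Slc3a2. In the KLRG1-negative libraries the bars reach 0.301 to 0.544 of the heavy chain level, and in libraries of the KLRG1-positive sort 0.909 to 1.03; Slc7a11 is too low to be visible.

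Slc1a5, which encodes the glutamine exchanger ASCT2 (ENSMUSG00000001918, chromosome 7, 16781340 to 16798274, plus strand), was the most abundant of the 9 per kilobase in both sorts on average. It stood at 341, 907 and 978 CPM in KLRG1-negative libraries 1, 2 and 3 and at 70.4, 690 and 711 CPM in libraries of the KLRG1-positive sort. Library 1 was the lowest of its group in both sorts, and KLRG1-positive library 1 held about 0.101 of the mean of libraries 2 and 3. That 10.1-fold spread among KLRG1-positive libraries was wider than in 94.0% of genes that averaged at least 10 CPM. All 3 same-numbered differences were negative (-2.28, -0.39 and -0.46 on the log2 scale), a pattern that 25.1% of genes tested showed. The log2 fold change was -0.60 (95% interval -2.63 to 1.43, edgeR adjusted p = 0.831), and -1.02 with the library number as a block (edgeR adjusted p = 0.333; DESeq2 adjusted p = 0.0909). Without KLRG1-positive library 1 it was -0.07.

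Set against the ILC2 markers, Slc1a5 separated the sorts, which it did not when set against the TMM-adjusted library total. Per 1000 CPM of those markers it stood at 209, 229 and 327 in KLRG1-negative and at 10.1, 86.9 and 106 in KLRG1-positive libraries, with no overlap. The marker sums themselves did not overlap, at 1631 to 3968 CPM in KLRG1-negative and 6728 to 7938 CPM in KLRG1-positive libraries. A gene that did not rise with them would tend to separate on this scale whatever its own level. The summed T cell and fibroblast markers were higher in all KLRG1-negative libraries, and their part in the Slc1a5 level was not tested.

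Slc1a4, which encodes ASCT1 (chromosome 11, 20302180 to 20332713, minus strand), was a minor partner. It stood at 4.39, 17.7 and 16 CPM in KLRG1-negative and at 4.83, 8.47 and 15.5 CPM in KLRG1-positive libraries, with library 1 again lowest in both sorts. The sorts overlapped (log2 fold change -0.40, 95% interval -2.05 to 1.24, edgeR adjusted p = 0.87), and without KLRG1-negative library 2 the log2 fold change was 0.04. Per kilobase, Slc1a5 exceeded Slc1a4 73.2, 48.3 and 57.6 times in KLRG1-negative and 13.7, 76.6 and 43.2 times in KLRG1-positive libraries (two-sided exact permutation p = 0.5). Slc7a5, Slc1a5 and Slc1a4 were the 3 genes, of the 8 that averaged at least 1 CPM, with library 1 lowest in both sorts, a pattern that 18% of the 14090 genes at that level showed.

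The sodium-coupled transporters Slc38a1 and Slc38a2, neighbours on chromosome 15 (96571418 to 96642913 and 96687394 to 96699698, both minus strand), did not pass the test. Slc38a1 stood at 202, 131 and 142 CPM in KLRG1-negative and at 227, 198 and 207 CPM in KLRG1-positive libraries. Only KLRG1-negative library 1 reached into the KLRG1-positive range. Slc38a1 was higher in each same-numbered comparison, as were 21.7% of genes tested, and its log2 fold change of 0.41 (95% interval -0.11 to 0.93) did not pass (edgeR adjusted p = 0.448, and 0.248 with the block). Slc38a2 stood at 254, 155 and 350 CPM in KLRG1-negative and at 218, 163 and 141 CPM in KLRG1-positive libraries. These ranges overlapped (log2 fold change -0.54, 95% interval -1.36 to 0.28, edgeR adjusted p = 0.537), and the same-numbered differences were -0.22, 0.07 and -1.31 on the log2 scale. The Slc38a2 difference rested on the libraries numbered 3: it was -0.22 without KLRG1-negative library 3, -0.28 without KLRG1-positive library 3 and -0.02 without both. The ratio of Slc38a2 to Slc38a1 per kilobase did not overlap, at 2.28, 2.14 and 4.46 in KLRG1-negative and 1.74, 1.5 and 1.23 in KLRG1-positive libraries (two-sided exact permutation p = 0.1 and paired sign-flip p = 0.25, each the smallest possible here). The difference in mean ratio was -1.47, and -0.72 without KLRG1-negative library 3.

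**Figure D3:**
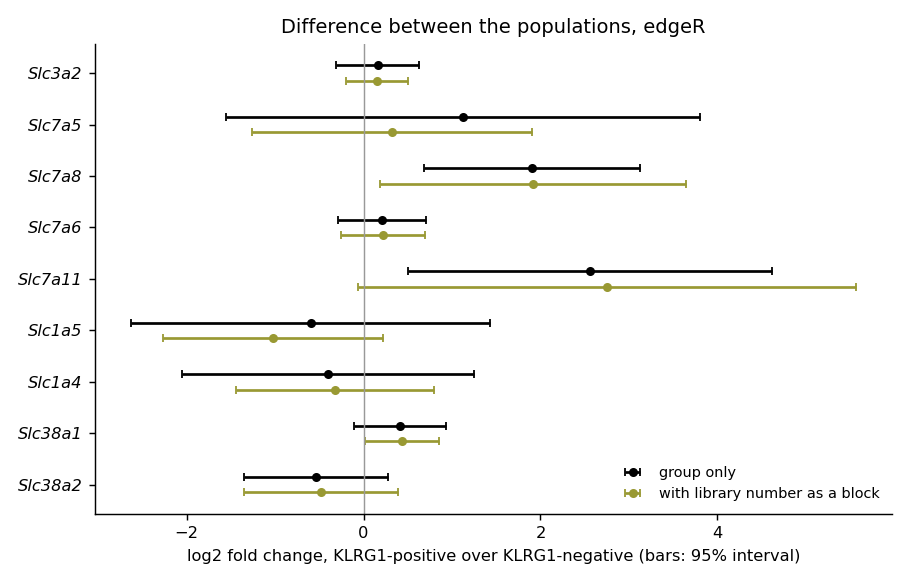
Log2 fold change of each gene with its 95% interval from edgeR, without (black) and with (olive) the library number as a block. Without the block only the intervals of Slc7a8 (0.68 to 3.13) and Slc7a11 (0.50 to 4.62) lie above 0, before adjustment for the genes tested. With the block those of Slc7a8 (0.19 to 3.65) and Slc38a1 (0.02 to 0.85) do, and that of Slc7a11 (-0.06 to 5.57) reaches below 0. Slc7a11 entered the test only through its KLRG1-positive counts, so its intervals lend no support to a difference.

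The order of the levels per kilobase placed Slc1a5 (178 ± 83.6 CPM per kilobase, SD, n = 3) and Slc3a2 (87.2 ± 9.90) first in KLRG1-negative cells, followed by Slc38a2 (54.7 ± 21). Slc38a1, Slc7a6, Slc7a8 and Slc7a5 came next, at 18.9, 15.7, 14.5 and 10.5 CPM per kilobase, and each of these 4 had a range that overlapped its neighbour's. In KLRG1-positive cells Slc1a5 (118 ± 87.2) and Slc3a2 (97.4 ± 16.8) again came first with overlapping ranges, and Slc7a8 (54.5 ± 24.4) stood next, above Slc38a2 (37.6 ± 8.59) in each of the 3 libraries. Slc38a1, Slc7a5 and Slc7a6 followed at 25.1, 22.8 and 18.1 CPM per kilobase, where the spread of Slc7a5 (27.6) exceeded its mean. Slc1a4 and Slc7a11 were last in both sorts.

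Among the 36 possible combinations of 2 of these genes, Slc3a2 and Slc7a6 had the most similar profiles over the 6 libraries, with a root-mean-square difference of centred log2 CPM of 0.16. Slc3a2 differed from Slc7a5 by 1.43 on the same measure. The genes most like Slc7a5 among 9121 protein-coding genes that averaged at least 10 CPM were Chaf1a (0.30), Sac3d1 (0.40) and Rcc1l (0.47). Chaf1a, a subunit of the histone chaperone CAF-1 used at DNA replication, ran from 6.29 to 111 CPM within the KLRG1-positive libraries. Those most like Slc3a2 were Eif4a3 (0.04), Prkcsh (0.05) and Bud23 (0.05), all of which varied little. Any genes that vary little lie close together on this measure. Beside Slc3a2, Slc7a6 ranked only 454 of the 9121 genes.

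No gene of the 5 related lists passed edgeR, and the share of tested genes with a positive log2 fold change ran from 41.4% (mTORC1 and its sensors) to 76.9% (glutathione and redox), against 46.5% of all genes tested. Over all genes tested, edgeR placed 4.19% higher and 11.5% lower at an unadjusted p under 0.05. DESeq2 called 2.0% higher and 9.15% lower, and with the library number as a block 3.78% and 11.6%. Libraries did not overlap in 9.46% (higher) and 15.2% (lower) of genes. Of 27 other amino acid transporter genes 16 were tested, and 0 passed (edgeR; 1 higher and 4 lower at an unadjusted p under 0.05), with a median log2 fold change of -0.19 against -0.05 over all genes tested. DESeq2, which tested more genes, called 3 of the 27 lower, 2 of them among the 16, and 4 lower with the library number as a block. The most abundant were Slc38a10, at 303, 271 and 355 against 414, 352 and 381 CPM, and Slc43a2, the system L transporter LAT4, at 96.5, 84.3 and 88.3 against 144, 150 and 111 CPM. Slc43a2 did not overlap between the sorts (log2 fold change 0.59, edgeR adjusted p = 0.199). Slc43a1, which encodes LAT3, leaned the other way, at 15.7, 16.1 and 12.5 CPM in KLRG1-negative and 0, 1.60 and 1.64 CPM in KLRG1-positive libraries (edgeR adjusted p = 0.219, DESeq2 adjusted p = 0.00820). It was singled out after its values were seen, as a member of the list that, like Slc43a2, carries system L substrates. Slc38a4, which encodes the amino acid transporter SNAT4 and was also named after its values were seen, had the lowest edgeR adjusted p of the list (0.10; DESeq2 adjusted p = 8.2e-06). It stood at 4.66, 11.9 and 30.5 CPM in KLRG1-negative and at 0, 0.0533 and 0.532 CPM in KLRG1-positive libraries. The fibroblast marker sums were in the same order over the KLRG1-negative libraries, at 3852, 6670 and 10773 CPM, and their part in the Slc38a4 level was not tested.

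Of 21 amino acid response genes, many of them ATF4 targets, 20 were tested and 0 passed edgeR. At an unadjusted p under 0.05 edgeR placed 3 higher and 2 lower, against 4.19% and 11.5% of all genes tested. DESeq2 called 1 lower, where it called 9.15% of all genes lower. With the block it called 3 higher and 3 lower, against 3.78% and 11.6% of all genes. Their median log2 fold change was -0.04, and 10 of the 20 were positive. The most abundant were the serine pathway genes Shmt2, at 205, 133 and 264 against 171, 141 and 294 CPM, and Psat1, at 80.6, 60.6 and 85.1 against 154, 76.2 and 211 CPM. Psat1 did not pass edgeR (adjusted p = 0.303) or DESeq2 without the block (adjusted p = 0.186). It was called higher by DESeq2 with the block (adjusted p = 0.0349). Atf4 itself, named after its values were seen, stood at 86.2, 138 and 180 CPM in KLRG1-negative and at 85.0, 77.5 and 79.0 CPM in KLRG1-positive libraries (edgeR adjusted p = 0.288). All KLRG1-positive libraries lay below all KLRG1-negative ones in Atf4, as in 15.2% of genes tested, though library 1 of the sorts differed by little. Of the 20 tested genes of the list, 3 were higher without overlap (Ddit4, Stc2 and Mthfd2) and 3 lower (Atf4, Ddit3 and Aldh1l2). Over all genes tested these shares were 9.46% and 15.2%.

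Of 30 genes of mTORC1 and its amino acid sensors 29 were tested and 0 passed (edgeR and DESeq2; 1 higher and 1 lower at an unadjusted p under 0.05 by edgeR), with a median log2 fold change of -0.06. Sec13 and Sesn1, the most abundant, had log2 fold changes of 0.10 and 0.46. All 13 glutathione and redox genes were tested and 0 passed (edgeR and DESeq2; 1 higher at an unadjusted p under 0.05 by edgeR). Their median was 0.48 with 10 positive, and the most abundant were Gpx1 (glutathione peroxidase 1, log2 fold change -0.16) and Txnrd1 (thioredoxin reductase 1, 0.48). Of 15 genes of glutamine use 14 were tested and 0 passed (edgeR and DESeq2; 1 higher at an unadjusted p under 0.05 by edgeR), with a median of 0.13. With the library number as a block DESeq2 called 1 of them higher, where it called 3.78% of all genes higher. That gene was Glul, the glutamine synthetase gene, named after its values were seen (DESeq2 adjusted p = 0.0485, edgeR adjusted p = 0.21 without the block and 0.176 with it). Glul stood at 22.4, 34.4 and 32.7 CPM in KLRG1-negative and at 47.3, 60.7 and 47.4 CPM in KLRG1-positive libraries. Glul was 1 of 3 genes of the list that were higher without overlap, and 1 other gene was lower, against 9.46% and 15.2% of all genes tested. Ctps2 and Glud1 were the most abundant of them. Glud1, the glutamate dehydrogenase gene, stood at 25.5, 228 and 52.8 CPM in KLRG1-negative and 30.6, 236 and 265 CPM in KLRG1-positive libraries, lowest in library 1 of both sorts like Slc1a5.

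**Figure D4:**
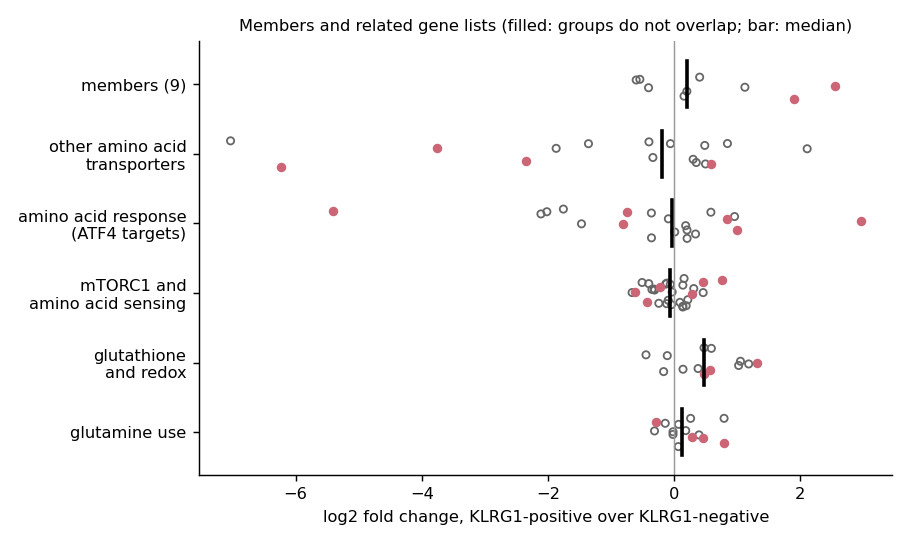
Log2 fold changes of the tested genes of 6 lists, 1 point per gene, filled where the libraries of the sorts do not overlap, with a bar at the median. The medians lie between -0.19 and 0.48, and no gene shown passed the edgeR test over all genes.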

How the data were processed

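RNA of 6 sorted samples was turned into cDNA by a SMARTer kit and made into unstranded Nextera XT libraries, per the labels' protocols. The deposited table holds raw read counts per gene and, in another column, gene length in bases. Per the file headers, featureCounts 1.5.2 counted reads without strand on Ensembl release 90 models of GRCm38, and STAR 2.4.1d comes from the submitters' processing notes. Multi-mapping alignments, 26.3 to 32.3% per library, were left out by the authors, which understates genes with close copies. Symbols came from GENCODE M21 (52489 of 52636 identifiers matched).

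The test was edgeR 4.0.16 under R 4.3.3 (quasi-likelihood F test, TMM, filterByExpr, two-sided, Benjamini-Hochberg), with DESeq2 1.42.0 as an alternative. The edgeR code was also run on counts simulated from the means and dispersions of these libraries. Those counts held no pairing by library number, so that run does not show how the test performs on these data. CPM per kilobase divides by the deposited gene length. Log2 profiles used a prior count of 2. Libraries with the same number departed together from the means of their sorts (correlation across genes 0.38, 0.34 and 0.19). Between libraries of different numbers it ran from -0.32 to 0.06. The numbers were thus read as pairing the libraries, a reading from the data and not from the labels. With 3 libraries per sort few other matchings are possible, so this reading is weak. The 9 genes and the lists were chosen with earlier results of these data known. Named were the 9 genes, up to 2 higher and 2 lower genes past the threshold per list or else its 2 most abundant, and the 3 nearest profiles to Slc7a5 and Slc3a2 (coding genes averaging at least 10 CPM). Alternatives covered scaling, filtering, the test, the block and libraries left out.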

Additional observations from a re-analysis of the deposited data

How the results depend on the processing

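None of the 9 transporter genes passed edgeR under any scaling, filter, block or left-out library tried, and 1, Slc7a8, passed DESeq2 without and with the block (log2 fold change 1.92 in each). The number of all genes called was 203, and 319 without a filter on low counts, 1979 with DESeq2, 53 with the replicate block in edgeR and 2464 with the block in DESeq2; leaving out 1 library gave 0 to 164, and leaving out both of a number 0 to 171. Of 143 log2 fold changes of the 9 genes under alternatives, 136 kept their direction and side of the threshold. Some settings with libraries left out called 0 of all genes, so in those the side of the threshold was fixed in advance. Slc3a2 (-0.0825) and Slc7a6 (-0.0349) turned negative with pan-haematopoietic scaling, which lowered the median of all genes to -0.28; with libraries left out, Slc7a5 ranged from -0.41 to 1.68 and Slc1a4 from -0.80 to 0.0393 (1 library) or 0.11 (both numbered 2). Among other named genes, Shmt2 (0.01) turned negative by library size only (-0.0037), with pan-haematopoietic scaling (-0.20) and with the block (-0.0038 in edgeR and -0.0050 in DESeq2), and ranged from -0.23 to 0.27 with 1 library left out (-0.0317 without both numbered 3). Sec13 was -0.16 with pan-haematopoietic scaling, and Gpx1 ranged from -0.31 to 0.0924 with 1 library left out (0.0198 without both numbered 3). Psat1 kept its direction and passed only DESeq2 with the block (adjusted p = 0.0349). The difference in Slc7a5 share of light chains (-1.41 percentage points) ranged from -14.4 to 8.82 and that in the Slc1a5 to Slc1a4 ratio from -31.2 to 0.21 with 1 library left out. That in the Slc38a2 to Slc38a1 ratio (-1.47) ranged from -1.88 to -0.72. The light to heavy chain ratio difference of 0.512 ranged from 0.432 to 0.553; paired by number its exact sign-flip p was 0.25, the smallest 3 pairs allow. The causes of these changes were not tested. Among the 9 genes depth was lowest for Slc7a11, at 1 to 17 counts per library, and of the 27 other transporter genes only 16 had enough counts to be tested by edgeR.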
